A study of Saccharomyces cerevisiae with 6 samples.

Results

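The CDP-diacylglycerol branch of phospholipid synthesis was described here by 10 genes of Saccharomyces cerevisiae, CDS1, CHO1, PSD1, PSD2, INO1, INM1, PIS1, PGS1, CRD1 and OPI1. They were chosen by gene symbol, and all 10 were among the 979 yeast genes of the array. Transcripts were measured on 6 single-colour oligonucleotide arrays with biotin-labelled RNA, 3 from a strain labelled wild type and 3 from one labelled ACC1 overexpressed wild type. ACC1 is the acetyl-CoA carboxylase gene. The promoter or plasmid that drove ACC1, the strain background, the growth medium and its inositol content are not stated in the labels. The labels leave unsaid whether replicates were grown as separate cultures. The p-values therefore cover the spread among these 6 samples alone, and that spread may be technical.

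CDP-diacylglycerol is the activated lipid from which yeast makes phosphatidylserine, phosphatidylinositol and the mitochondrial lipids phosphatidylglycerol and cardiolipin. Cds1 forms it from phosphatidic acid and CTP, and Tam41 does so inside mitochondria. Many genes of this branch are known to be activated by Ino2 and Ino4 through an inositol-sensitive promoter element, and to be repressed by Opi1, which is held at the endoplasmic reticulum by phosphatidic acid and enters the nucleus when inositol is supplied. INO1 is the classical target of that circuit, and ACC1, FAS1 and FAS2 are also known to carry the element.

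No gene of the branch passed the threshold between the groups. Of the 10, 0 had an adjusted p below 0.05 in limma, against 3.47% of all 979 genes, and 1, CDS1, had an unadjusted p below 0.05, against 20.1% of all genes. The 7 genes that were above the control probes on at least 1 array of each group differed by −0.34 to 0.09 on the log2 scale, with a median of 0.023, beside a median of −0.0088 over all genes. Of these 7 values 5 were positive and 2 were negative. The values over all genes had no such filter on signal, and 454 were positive and 525 negative. With no filter on the branch either, 6 of the 10 values were positive and 4 negative, with a median of 0.014. The groups of 3 arrays did not overlap for 1 of the 10 genes, CDS1, compared with 24.7% of all genes, so the branch held no more separated genes than the array as a whole. With no background subtracted, the 95% intervals of the difference held 0 for all 7 genes above the control probes in both groups. Their half-widths ran from 0.12 to 0.43. After a normexp background correction with an offset, the standard errors of all 7 were larger. That of INO1 was 0.13 against 0.054, and that of CRD1 was 0.21 against 0.079. PIS1 then had an unadjusted p below 0.05 in limma (adjusted p = 0.164). The half-widths as reported may therefore be too narrow.

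ACC1 checked the labels. Its normalized log2 intensity was 11.67, 11.76 and 11.87 on wild type arrays 1, 2 and 3, and 14.00, 14.12 and 14.13 on ACC1 overexpression arrays 1, 2 and 3. All arrays labelled as overexpressing ACC1 therefore lay above all wild type arrays. The median yeast spot was 2.17-fold brighter on the wild type arrays, and the control probes, which carry plant and phage names, were 1.92-fold brighter there. Arrays 1, 2 and 3 of each group lay in rows 1 to 40, 63 to 102 and 125 to 164 of the layout. Whether the 3 arrays of a group shared a slide cannot be told from the rows, and the p-values take no account of it. Each group was on arrays of its own, so a difference in hybridization or scanning and the group cannot be told apart. Raw intensities below are therefore to be compared within a group, and normalized log2 intensities between groups. Each gene was read by a single probe, printed in 3 spots for INO1 and PIS1 and in 2 spots for the other 8. Levels of different genes were not set against each other, because probes differ in how strongly they bind.

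The brightness of the spots decided how much could be read from each gene. The limit for a signal above background was the 95th percentile of the control probes of the same array, which lay between 1229 and 3028. PSD1, PSD2, INO1 and CRD1 met this on all 6 arrays. CHO1 and PGS1 met it on all but wild type array 1, and PIS1 on wild type array 3 and ACC1 overexpression arrays 2 and 3. CDS1 met it on wild type array 3 only, at 1.01 times the percentile, and INM1 and OPI1 on no array. For CDS1, INM1 and OPI1 the measured group means and the p of the fit are given without a fold or an interval. For a bound on the fold, lower CDS1 values on ACC1 overexpression arrays were raised to the lowest normalized value of any gene above the limit there. The fold bound for CDS1, wild type over ACC1 overexpression, came to 0.999, below 1, so the direction was not established.

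**Figure D1:**
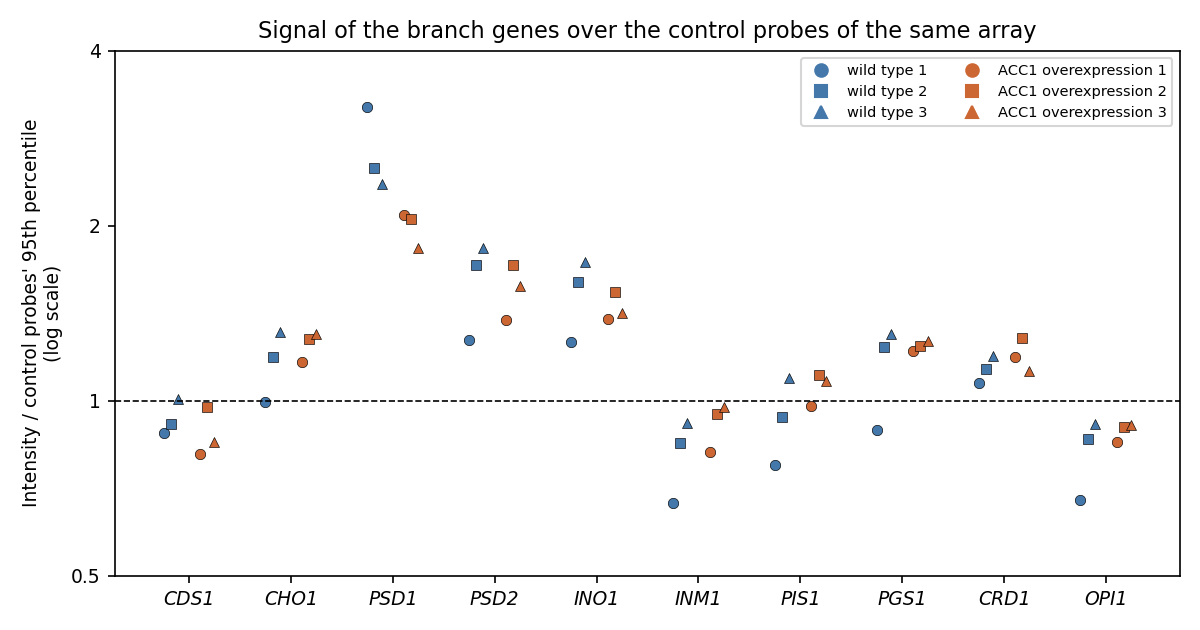
Mean raw intensity of each branch gene divided by the 95th percentile of the control probes on the same array (log axis, dashed line at 1), for 3 wild type (blue) and 3 ACC1 overexpression arrays (orange). PSD1, PSD2, INO1 and CRD1 lay above the line on all 6 arrays, and INM1 and OPI1 lay below it on all 6.

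The probes shown here are those of CDS1 at the head of the branch, the pair of phosphatidylserine decarboxylases PSD1 and PSD2, and INO1, the classical inositol-sensitive gene. Sequences are as listed in the scanner files, 5′ to 3′, and the capitals mark the longest run of bases that another probe of the array also holds.
CDS1 (YBR029C, positions 694 to 728 in the probe name): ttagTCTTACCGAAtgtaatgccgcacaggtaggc
PSD1 (YNL169C, positions 584 to 618): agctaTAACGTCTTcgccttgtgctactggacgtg
PSD2 (YGR170W, positions 2930 to 2964): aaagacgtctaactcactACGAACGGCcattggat
INO1 (YJL153C, positions 1259 to 1293): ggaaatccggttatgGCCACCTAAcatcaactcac
The shared run was 10 bases for CDS1, with the SPS19 probe, and 9 bases for PSD1, PSD2 and INO1, with the probes of BNA1, YLR345W and CCA1. The PSD1 and PSD2 probes shared at most 6 bases with each other, so the isoenzyme genes were read by distinct sequences. Across the 10 genes the longest run was 9 or 10 bases and the GC content ran from 43.6% to 51.4%, around the 48.6% median of all yeast probes. Probes were compared with each other only, not with the yeast transcriptome.

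CDS1 encodes CDP-diacylglycerol synthase, which makes CDP-diacylglycerol from phosphatidic acid. Its raw intensity was 2666, 2451 and 2772 on wild type arrays 1 to 3 and 1104, 1197 and 1205 on ACC1 overexpression arrays 1 to 3. After normalization these were 11.01, 10.80 and 10.80 in wild type and 10.60, 10.76 and 10.61 in ACC1 overexpression on the log2 scale. The groups did not overlap, with wild type higher and a gap of 0.041 between them, which was smaller than the median SD of 0.11 between the 2 CDS1 spots of an array. Among all genes, 11.4% had wild type entirely above ACC1 overexpression. The group means were 10.87 ± 0.12 and 10.65 ± 0.09 (SD, n = 3 each), and the gene did not pass in limma (unadjusted p = 0.0216, adjusted p = 0.167). No ACC1 overexpression array had CDS1 above the control probes. Over 14 other settings its limma adjusted p ran from 0.0761, with trended, robust variances, to 0.682, after common-median scaling. Wild type stayed higher in all of them, but the size of the difference moved widely. All these settings drew on the same arrays, with CDS1 below the control limit on all but wild type array 3. The unchanged sign is therefore no separate support, and with a fold bound of 0.999 a higher level in wild type was not established.

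The phosphatidylserine arm begins with CHO1, the phosphatidylserine synthase gene. CHO1 stood at 11.18, 11.15 and 11.15 in wild type and at 11.18, 11.21 and 11.29 in ACC1 overexpression on the normalized log2 scale. Arrays numbered 1 were nearly equal and the groups overlapped. The difference was 0.067 with a standard error of 0.056 and a 95% interval from −0.061 to 0.19 (limma adjusted p = 0.554). CHO1 lay at 0.99 to 1.31 times the control limit. Its difference was 0.17 and 0.18 after normexp with and without an offset, 0.14 after common-median scaling, and 0.032 without ACC1 overexpression array 3, and it passed in none of these.

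PSD1 encodes the phosphatidylserine decarboxylase of the mitochondrial inner membrane, which makes phosphatidylethanolamine. It had the widest spread of the branch. Its raw intensity was 9690, 6764 and 6489 on wild type arrays 1 to 3 and 2850, 2526 and 2604 on ACC1 overexpression arrays 1 to 3. The normalized log2 values were 12.80, 12.14 and 11.94 in wild type and 12.06, 11.97 and 11.82 in ACC1 overexpression. Wild type array 1 stood 0.76 above the mean of the other two wild type arrays, a gap exceeded by 4 of the 979 genes, while wild type array 3 lay below ACC1 overexpression arrays 1 and 2. Both PSD1 spots of wild type array 1 were bright, with an SD of 0.036 on the log2 scale between them. The mean difference of −0.34 (standard error 0.19, interval −0.77 to 0.086) did not pass (limma adjusted p = 0.350), and it was the 38th largest of the array in absolute size. It was −0.087 without wild type array 1, with an adjusted p of 0.628. Without wild type array 3 it was −0.51 (adjusted p = 0.0759).

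PSD2 encodes the second decarboxylase, found in the Golgi and vacuolar membranes. Its normalized log2 intensity was 11.50, 11.62 and 11.57 in wild type and 11.43, 11.68 and 11.59 in ACC1 overexpression. The wild type values lay within the range of the ACC1 overexpression values. The difference was 0.0055 (standard error 0.074, interval −0.16 to 0.17, limma adjusted p = 0.978). Wild type array 1, the high one for PSD1, was the lowest wild type array for PSD2.

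**Figure D2:**
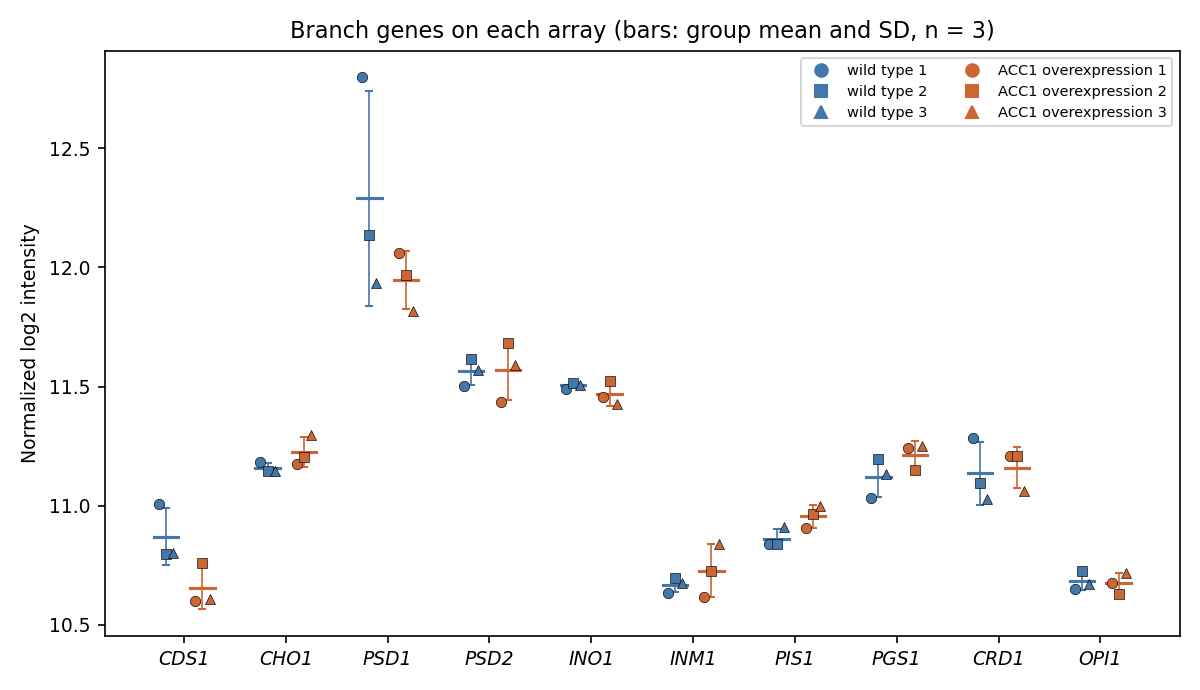
Normalized log2 intensity of the 10 branch genes on each of 3 wild type (blue) and 3 ACC1 overexpression arrays (orange), with the marker shape giving the replicate number and bars the group mean and SD (n = 3). PSD1 on wild type array 1, at 12.80, stood apart, and the groups overlapped for every gene but CDS1; levels of different genes are not comparable.

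The inositol arm supplies the head group for phosphatidylinositol. INO1 encodes inositol-phosphate synthase, the first step from glucose 6-phosphate. Its raw intensity was 3823, 4306 and 4771 in wild type and 1888, 1892 and 2014 in ACC1 overexpression. The normalized log2 values were 11.49, 11.52 and 11.51 in wild type and 11.45, 11.52 and 11.43 in ACC1 overexpression. INO1 was the steadiest gene of the branch among the wild type arrays, which spanned 0.024, and all of them lay inside the range of the ACC1 overexpression arrays. The difference was −0.037 with a standard error of 0.054 and an interval from −0.16 to 0.086 (limma adjusted p = 0.760). Within replicate numbers 1, 2 and 3 the differences were −0.037, 0.0069 and −0.081.

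INM1 encodes an inositol monophosphatase, which releases inositol from the product of Ino1. It lay below the control limit on all 6 arrays, with raw intensities from 2017 to 2523 in wild type and from 1113 to 1388 in ACC1 overexpression. Its normalized group means were 10.67 ± 0.03 and 10.73 ± 0.11 on the log2 scale (SD, n = 3 each). The groups overlapped and limma gave an adjusted p of 0.673.

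PIS1 encodes phosphatidylinositol synthase, which joins inositol to CDP-diacylglycerol and so draws on the same precursor as Cho1. PIS1 stood at 10.84, 10.84 and 10.91 in wild type and at 10.90, 10.96 and 11.00 in ACC1 overexpression on the normalized log2 scale. The groups overlapped only where wild type array 3 stood just above ACC1 overexpression array 1. The differences within replicate numbers were 0.067, 0.12 and 0.090, and the mean difference was 0.094 (standard error 0.056, interval −0.033 to 0.22, limma adjusted p = 0.390). PIS1 was above the control probes on 3 of the 6 arrays, so its change may be understated where background had not been subtracted.

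The mitochondrial arm leads to cardiolipin, the signature lipid of the inner mitochondrial membrane. PGS1 encodes phosphatidylglycerolphosphate synthase, its committed step, and CRD1 encodes cardiolipin synthase, its last step. PGS1 stood at 11.03, 11.20 and 11.13 in wild type and at 11.24, 11.15 and 11.25 in ACC1 overexpression on the normalized log2 scale. The difference of 0.093 (standard error 0.064, interval −0.051 to 0.24) did not pass (limma adjusted p = 0.457), and ACC1 overexpression array 2 lay below wild type array 2. It was 0.049 without wild type array 1, 0.031 with array weights, 0.17 after common-median scaling, and 0.26 and 0.28 after normexp with and without an offset, and it passed in none of these. CRD1 stood at 11.28, 11.09 and 11.03 in wild type and at 11.21, 11.21 and 11.06 in ACC1 overexpression. Its difference was 0.023 (standard error 0.079, interval −0.16 to 0.20, adjusted p = 0.913). The CRD1 spots of an array agreed closely, with an SD of at most 0.033 on the log2 scale, while wild type arrays spanned 0.26, so the spread lay between arrays and not between spots.

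OPI1 encodes the repressor of the inositol-sensitive genes. It lay below the control limit on all 6 arrays, and its normalized group means were 10.68 ± 0.04 in wild type and 10.67 ± 0.05 with ACC1 overexpressed (SD, n = 3 each, limma adjusted p = 0.963). Among the partners of Opi1 in that circuit, 4 of 9 listed regulators were measured, OPI1 included. Of these 0 passed in either direction and 0 had an unadjusted p below 0.05, where 3.47% and 20.1% of all genes did. The list median was −0.027. INO2, a subunit of the activator, also lay below the control limit on all 6 arrays (limma adjusted p = 0.457). SCS2, the membrane protein that anchors Opi1, stood at −0.039 (adjusted p = 0.764).

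**Figure D3:**
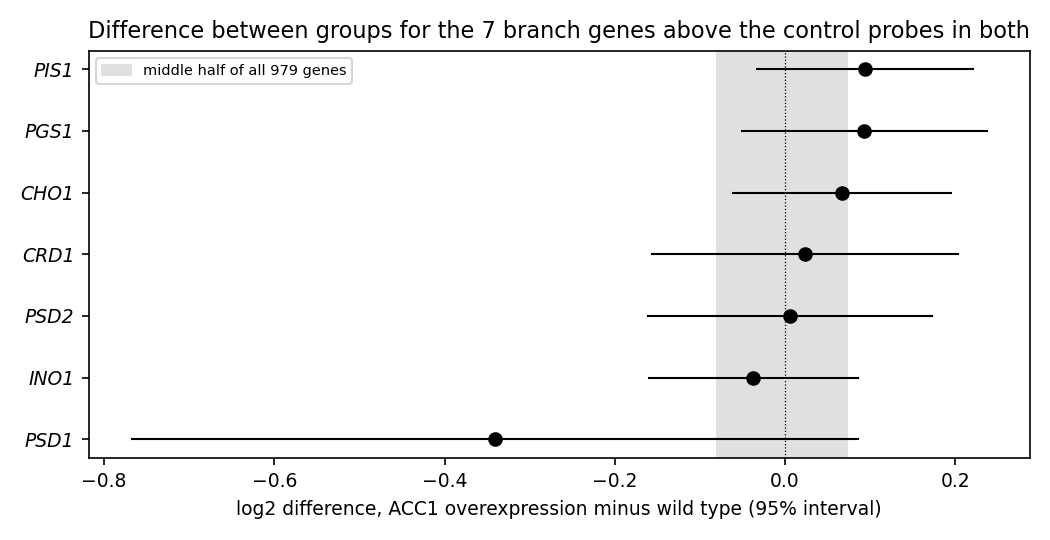
Difference in normalized log2 intensity, ACC1 overexpression minus wild type, with its 95% interval for the 7 branch genes above the control probes on at least 1 array of each group (limma, 3 against 3 arrays); the grey band runs from −0.080 to 0.074, the quartiles of all 979 genes. With no background subtracted, the interval held 0 for all 7 genes.

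Other genes known to carry or respond through the inositol-sensitive element were set beside the branch. Of 10 measured, 2 rose, where 2.66% of all genes passed as higher, and 8 did not pass. An unadjusted p below 0.05 was reached by 4 of the 10, against 20.1% of all genes. These were ACC1, FAS1, CHO2 (0.29, limma adjusted p = 0.0746) and FAS2 (0.25, adjusted p = 0.0789). The list median was 0.14. The genes that rose were ACC1 itself, the overexpressed gene, and FAS1, the beta subunit gene of fatty acid synthase (difference 0.62, interval 0.45 to 0.79). The rise of ACC1 was set by the design, yet ACC1 is included in these counts and in the list median. In the same arrays the interval of INO1 ended at 0.086 and that of CHO1 at 0.19, both below the lower bound of FAS1. CHO1 lay near the control limit and INO1 at 1.26 to 1.73 times it, so their changes may be understated. After normexp with and without an offset CHO1 stood at 0.17 and 0.18 (standard error 0.14 in both). INO1 stood there at −0.080 and −0.084 (standard error 0.13 in both), and FAS1 at 0.78 in both. The difference between these genes' changes was not tested.

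Among 7 measured genes of phosphatidate supply and use, 0 passed and 1 had an unadjusted p below 0.05. The shares over all genes were close, at 3.47% and 20.1%. The list median was 0.042. LPP1, a lipid phosphate phosphatase gene, stood at 0.14 (limma adjusted p = 0.227), and GPT2, a glycerol 3-phosphate acyltransferase gene, at 0.12 (adjusted p = 0.305). Of 14 listed genes of inositol uptake and turnover 9 were measured, and the inositol transporter genes ITR1 and ITR2 were not among them. Of the 9 measured genes 1 fell, where 0.817% of all genes passed as lower. It was PLC1, the phospholipase C gene (−0.28, limma adjusted p = 0.0413), and 8 did not pass. An unadjusted p below 0.05 was reached by 3 of the 9, against 20.1% of all genes. PLC1 was followed by DDP1, a polyphosphate phosphatase gene (−0.27, adjusted p = 0.155), and the list median was −0.094. The PLC1 call was kept in 6 of 15 other settings. It was lost without wild type array 1 (−0.24, adjusted p = 0.0727), without wild type array 2 (−0.32, adjusted p = 0.0921) and without ACC1 overexpression array 1, 2 or 3 (−0.27, −0.29 and −0.28, adjusted p from 0.137 to 0.148). It was also lost after normexp with an offset (−0.45, adjusted p = 0.107) and without one (−0.46, 0.117), with cyclic loess (−0.28, 0.0621) and with trended, robust variances (−0.28, 0.0609).

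Among 7 measured genes that use phosphatidylinositol, 0 passed and 0 had an unadjusted p below 0.05, beside 3.47% and 20.1% of all genes. The smallest p-values were those of AUR1, the inositol phosphorylceramide synthase gene (0.18, adjusted p = 0.247), and IPT1, which acts later in the synthesis of inositol sphingolipids (−0.10, adjusted p = 0.411). Of the listed genes of mitochondrial phospholipid handling only TAZ1, the cardiolipin-remodelling acyltransferase gene, was measured, at −0.13 (adjusted p = 0.324). Among 8 measured genes of phosphatidylcholine methylation and the Kennedy pathway, PSD2 included, 0 passed and 1 had an unadjusted p below 0.05, again close to the 3.47% and 20.1% of all genes. CHO2, the first methyltransferase gene, stood at 0.29 (adjusted p = 0.0746) and was above the control probes on 1 wild type array, and PCT1, of the CTP-consuming step that makes CDP-choline, stood at −0.23 (adjusted p = 0.323).

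PSD1 had the largest absolute difference of the branch, and the genes with the most similar profile over the 6 arrays were PCT1 (Pearson r = 0.996), IDP3, a peroxisomal isocitrate dehydrogenase gene (r = 0.994), and GSY2, a glycogen synthase gene (r = 0.994). These correlations are a description over 6 arrays. All 3 genes were highest on wild type array 1, where PCT1 stood at 11.92, IDP3 at 12.95 and GSY2 at 13.43 on the normalized log2 scale. They were picked for their correlation with PSD1, which was itself highest there, so this followed from the choice. On the other arrays PCT1 ran from 11.30 to 11.51, IDP3 from 11.96 to 12.24 and GSY2 from 12.36 to 12.66. None of the 3 passed between the groups, with limma adjusted p-values of 0.323, 0.299 and 0.323. Wild type array 1 had the highest 95th percentile of control probes, 3028. It had the fewest yeast genes above that limit, 624 against 814 and 890 on wild type arrays 2 and 3. The part of that array in the PSD1 value was measured only by leaving it out.

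**Figure D4:**
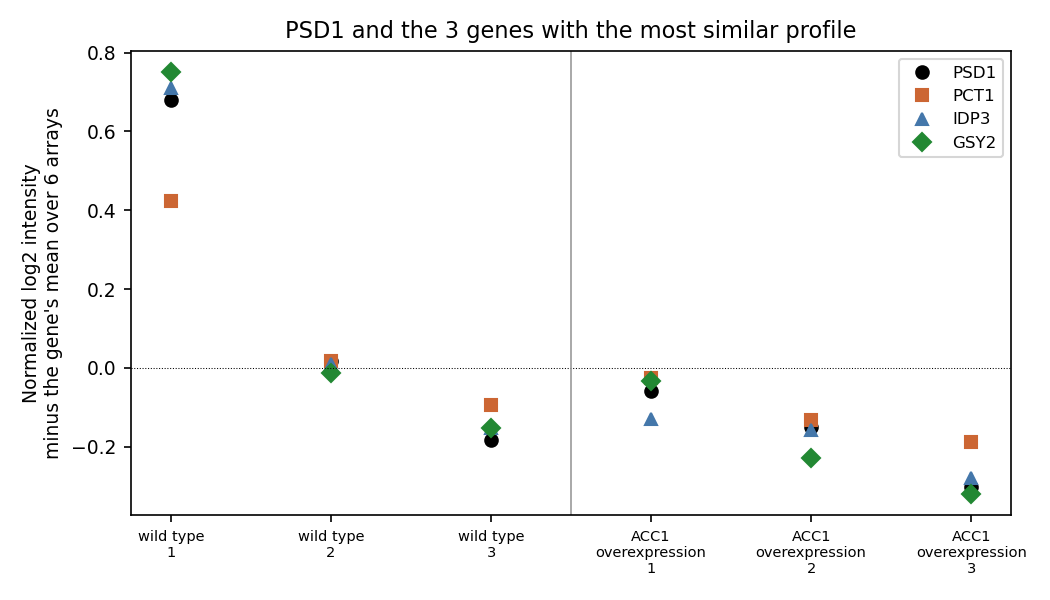
Normalized log2 intensity of PSD1 and of the 3 genes with the most similar profile, each minus its own mean over the 6 arrays, by array. All 4 genes were highest on wild type array 1, which followed from picking the 3 by their correlation with PSD1.

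Among the other branch genes above the control probes on all arrays, CRD1 stood higher on wild type array 1 than on the mean of wild type arrays 2 and 3, by 0.22 on the log2 scale, and 8.17% of all genes stood at least as far above. PSD2 differed there by −0.090 and INO1 by −0.020. Without wild type array 1 no branch gene passed either, and 0 of the 10 had an unadjusted p below 0.05.

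Across 15 processing settings the branch genes stayed below the threshold in every one. The smallest adjusted p was 0.0533, for PSD1 with the replicate number as a block, followed among the other genes by 0.0577 for PIS1 after common-median scaling. CHO1, PSD1, PIS1, INO1 and PGS1 kept the sign of their difference in all 15 settings. PSD2 changed sign in 4 and CRD1 in 3 of them. INO1 stayed between −0.084 and −0.017 in all of them. PIS1 stood at 0.40 and 0.46 after the normexp background corrections with and without an offset, against 0.094 as reported, and did not pass in either (limma adjusted p = 0.164 and 0.162).

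**Figure D5:**
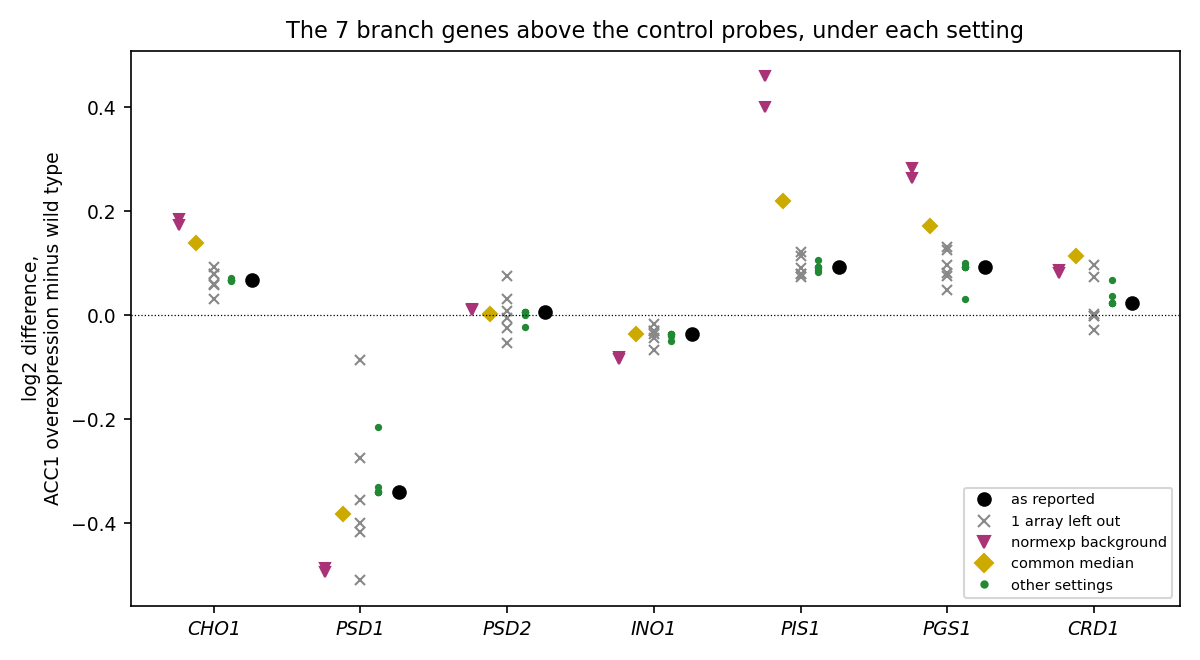
Difference in normalized log2 intensity, ACC1 overexpression minus wild type, for the 7 branch genes above the control probes in both groups, as reported (black) and under the other settings, with crosses for fits that left out 1 array. INO1 stayed near 0 under all settings, while PIS1, which was near the control probes, moved most after normexp; no value shown passed the threshold.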

How the data were processed

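The deposited scanner tables give, per the file headers, a median foreground intensity for each of 2240 spots per array, with no background column; no source used here says whether the authors had subtracted background. The deposited table of processed values was not used, since its rows could not be tied to genes. On the log2 scale, yeast spots were brought to common quantiles (the 26 control probes left out), and each probe took the mean of its spots. Symbols came from the probe comments, and 52 blank ones from the RefSeq R64 gene table, in which all 979 systematic names were found. Groups followed the sample titles. They were compared with limma 3.58.1 in R 4.3.3 (two-sided, Benjamini-Hochberg over 979 genes, threshold 0.05). The fit was run on simulated data first. The number of arrays limits the precision. Branch genes, comparison lists and tests were chosen with earlier results of these data known. Named were all branch genes, ACC1, in each list the genes past the threshold and the 2 with the smallest p, and the 3 genes most correlated with the branch gene that differed most. Promoter and protein sequences were not used here. Alternatives covered background, normalization, spot averaging, a dim-gene filter, variances, array weights, the replicate number, thresholds and each array left out.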

Additional observations from a re-analysis of the deposited data

How the results depend on the processing

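The count of branch genes past the threshold was 0 in limma under all 17 alternatives. At an unadjusted p below 0.05 the count, 1 as reported, was 5 of 10 with a common median, where 307 of 979 genes reached it, and 0 to 2 under the other settings. All 147 values of single branch genes stayed on the same side of the threshold. The count over all genes, 34, was 74 with a common median, 176 with array weights, 121 with the replicate block, 5 at an adjusted p of 0.01 and 68 at 0.1, and ran from 4 to 123 with 1 array left out; the cause was not tested. Deviations from the group mean correlated between arrays of equal number with r of 0.467, −0.021 and 0.385, so not for every number. The main fit took no account of the replicate number. Arrays of equal number also lay in the same rows of the array layout in both groups, so the block stands for position too. With the replicate block PSD1 had an adjusted p of 0.0533 and CDS1 of 0.0783. CDS1 could not be fitted with the filter on dim genes, which left out CDS1, INM1 and OPI1. Signal over the control probes limits most what these 3 genes and PIS1 can show. CHO1, PGS1 and CRD1 reached at most 1.31, 1.30 and 1.28 times the control limit, and INO1 and PSD2 at most 1.73 and 1.83 times. With no background subtracted, their changes may be understated too.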

Other observations

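The probe names of all 979 yeast genes give the higher position first, and the span equals the probe length in each. Read in the frame these positions give, with the first base of the coding sequence as position 1, the reverse complement of the listed sequence held no stop codon in any of the 979 probes (0 of 979), while the listed sequence held one in 441 (45.0%). The 10 branch probes followed the same pattern on the reverse complement. The labelling protocol describes antisense RNA. No source used here says which strand was synthesised on the array.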
